A study of Mus musculus with 4 samples.

Results

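In C2C12 myotubes, 158 genes carried an Argonaute (AGO) cluster in the 3'UTR while none was called in the 3'UTR of the same gene in embryonic stem cells (ESCs). These myotube-only clusters were chosen from the called tables. A gene was kept when the cytoplasmic myotube table held at least 1 cluster annotated to its 3'UTR and the cytoplasmic ESC table held none. The rule gave 195 clusters, out of 363 3'UTR clusters and 889 clusters of any class in myotubes, and out of 3548 clusters in both tables. The myotubes came from C2C12 cells, a mouse myoblast line, at 2 days of differentiation, and their endogenous AGO proteins were captured with a Pan-AGO affinity peptide. The ESCs carried a doxycycline-inducible HA-Flag-AGO2 transgene, switched on for 15 h with 2.5 ug/ml doxycycline, and the tagged protein was captured with FLAG M2 antibody. Both kinds of cell were exposed to UV light of 312 nm over 5 min, fractionated, and treated with RNase T1, which cuts RNA after G, before and after the capture. Each cell type gave 1 cytoplasmic library, so no comparison between them has a replicate check and none was tested. Cell type, the AGO protein captured and the capture reagent differed together and cannot be told apart. RNA levels were not measured here, so more binding and more RNA, or more RNA per cell and more cells of a type, cannot be told apart either.

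AGO proteins carry miRNAs, short RNAs that pair with target RNAs mainly through the seed, the stretch near their 5′ end. Pairing usually lies in the 3'UTR and lowers the stability or translation of the target. Differentiating myoblasts leave the cell cycle, fuse, and build sarcomeres and the receptors of the neuromuscular junction, and muscle cells are known for miR-1, miR-133 and miR-206. In PAR-CLIP, crosslinked RNA is read with T-to-C conversions, and overlapping reads with such conversions are grouped into clusters.

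The sequences below are the strongest myotube-only clusters of at most 30 nt, shown because they hold the most reads and because they show the base composition that the clusters share. All are given 5′ to 3′ on the transcript strand, with mm10 coordinates as deposited, and capitals mark every G.
Ppp2cb, chr8:33619319-33619346, plus strand: acattaaaacacatcatGGaccaaaacG
Actc1, chr2:114047378-114047399, minus strand: ccccctccccatctctcatcaG
Acta2, chr19:34241586-34241606, minus strand: ttcctttccaaatcattcctG
Eif5a, chr11:69916975-69916995, minus strand: cctttatcctactcatccccG
Myog, chr1:134291927-134291951, plus strand: actccccactccccattcacataaG
Thbs1, chr2:118126522-118126549, plus strand: aacttctatacaaatattacctcatttG
Arl6ip5, chr6:97232959-97232982, plus strand: acatcccctccaaaatcccctaaG
Chrna1, chr2:73566069-73566093, minus strand: aatcctttcacacttaccaaacatG
Serinc3, chr2:163624988-163625013, minus strand: cattaatccacatttcccttcttcaG
Gatm, chr2:122595199-122595222, minus strand: ctaatatttaaccatctacctctG

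All 10 ended in G, and all but the Ppp2cb cluster had no other G. A few myotube-only clusters did hold a seed site, the 7 letters complementary to miRNA bases 2 to 8. The next sequences are those of the families with 2 or more such clusters, followed by 3 single sites in genes described below. Capitals mark the site, and the number in each name is the cluster's read count.
Zfhx4 (18 reads), miR-322 site, chr3:5414502-5414524, plus strand: tttatcaacattTGCTGCTattg
Rbms1 (9 reads), miR-322 site, chr2:60750891-60750911, minus strand: tcaaaaatcctTGCTGCTctg
Rreb1 (8 reads), miR-322 site, chr13:37951817-37951839, plus strand: aacttaaaaacTGCTGCTacatg
Vegfa (6 reads), miR-322 site, chr17:46018588-46018608, minus strand: tttcttatatcTGCTGCTaaa
Ppp2cb (77 reads), miR-133b site, chr8:33619319-33619346, plus strand: acattaaaacacatcatGGACCAAaacg
Actn4 (12 reads), miR-133b site, chr7:28893689-28893714, minus strand: ttctaaGGACCAAaaccaacaaaaca
Ncam1 (12 reads), miR-206 site, chr9:49505283-49505305, minus strand: cacacacaaacACATTCCtctag
Ppib (6 reads), miR-206 site, chr9:66066546-66066568, plus strand: accacacccctcACATTCCacag
Wisp1 (14 reads), miR-27b site, chr15:66922937-66922963, plus strand: tacttatctattttcaaACTGTGAttg
Dram2 (10 reads), miR-27b site, chr3:106573750-106573771, plus strand: cttattatACTGTGAaaatttg
Laptm4b (5 reads), miR-24 site, chr15:34283459-34283487, plus strand: aactctCTGAGCCacattttacaatttag
Vgll3 (5 reads), miR-24 site, chr16:65860914-65860939, plus strand: tttcttttccctcatCTGAGCCtttg
Gatm (27 reads), let-7a site, chr2:122595199-122595222, minus strand: ctaatatttaaccatCTACCTCtg
Ttn (19 reads), miR-26a site, chr2:76704855-76704881, minus strand: catttcaatcctttcaTACTTGAcctg
Cdkn1a (5 reads), miR-22 site, chr17:29100220-29100240, plus strand: tcttaccttaGGCAGCTccag

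The mature miRNAs that these sites match are given from RefSeq (GRCm38.p6), with the seed, bases 2 to 8, in capitals. The sites above are the reverse complement of the seed, and miR-206 shares its seed with miR-1.
miR-322-5p: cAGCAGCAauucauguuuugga
miR-133b-3p: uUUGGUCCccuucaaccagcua
miR-206-3p: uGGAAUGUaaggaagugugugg
miR-27b-3p: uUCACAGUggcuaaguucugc
miR-24-3p: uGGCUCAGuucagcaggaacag
let-7a-5p: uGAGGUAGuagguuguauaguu
miR-26a-5p: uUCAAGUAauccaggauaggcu
miR-22-3p: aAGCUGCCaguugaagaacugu

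There were 135023 reads in the myotube table and 214955 reads in that of ESCs. Of 8 marker genes of myotubes, 7 had a cluster of any class in myotubes, with 347 reads in all, and 3 had one in ESCs, with 23 reads, while Ckm, muscle creatine kinase, had none in either. Of 8 ESC marker genes, none had a cluster in myotubes and 5 had one in ESCs, with 580 reads. Of the myotube markers, Myog, Actc1, Ttn, Chrna1 and Myh3 are myotube-only genes, for which the rule fixed a myotube cluster in advance. The myotube marker count is thus a description and no check of the cells. Pou5f1, Zfp42 and Lin28a had no cluster in either table. The smallest cluster had 5 reads in myotubes and 4 reads in ESCs, so a gene with no cluster was below a calling limit and was not shown to be unbound.

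The myotube-only clusters held 1960 reads, which was 1.45% of the reads of the myotube table (exact Clopper-Pearson 95% interval 1.39 to 1.52%, counting error only). The other 168 myotube 3'UTR clusters, in genes that also had a 3'UTR cluster in ESCs, held 1983 reads, and the 1063 ESC clusters of the 754 genes bound in the 3'UTR in ESCs alone (ESC-only) held 11705 reads, 5.45% of that table. Most myotube-only clusters were small. The read count per cluster had a median of 8, with quartiles of 6 and 10 and a maximum of 77, and 41 clusters had 5 reads. The median was also 8 in the genes bound in both cell types and in the ESC-only clusters, with maxima of 155 and 135. Clusters of at least 10 reads were 61 of the myotube-only ones (31.3%, 24.8 to 38.3%), 64 of those in genes bound in both (38.1%) and 397 of the ESC-only ones (37.3%). A rule that counts only clusters of at least 10 reads in both tables would leave 67 genes with 75 clusters, of which 55 genes were among the 158.

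Just inside the rule stood 134 genes with a single myotube cluster, which had 5 to 77 reads with a median of 7.5, and 31 of these clusters had 5 reads. Just outside it stood 60 genes that had exactly 1 3'UTR cluster in ESCs, with 5 to 282 reads there, and for 12 of them that ESC cluster had at most 6 reads. Tpm2, a tropomyosin of the thin filament, was one of these, with 47 myotube reads and 5 ESC reads, and Fstl1, a secreted glycoprotein, had 15 myotube reads and 5 ESC reads. Membership of such genes turned on a few ESC reads.

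Reads were spread unevenly over the genes. The 12 leading genes held 552 of the 1960 reads (28.2%), while 95 genes had 5 to 9 reads and 23 had at least 20. Ppp2cb, a catalytic subunit of protein phosphatase 2A, led with 77 reads in 1 cluster of 28 nt, or 2.75 reads per nt covered, and 90.9% of these reads carried a conversion. The alpha actins Actc1 and Acta2 followed in density, with 44 reads at 2.00 reads per nt and 40 reads at 1.90 reads per nt. Igfbp5 and C1qtnf3, both secreted proteins, had more reads than the actins but spread over several clusters, at 0.368 and 0.646 reads per nt.

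**Figure D1:**
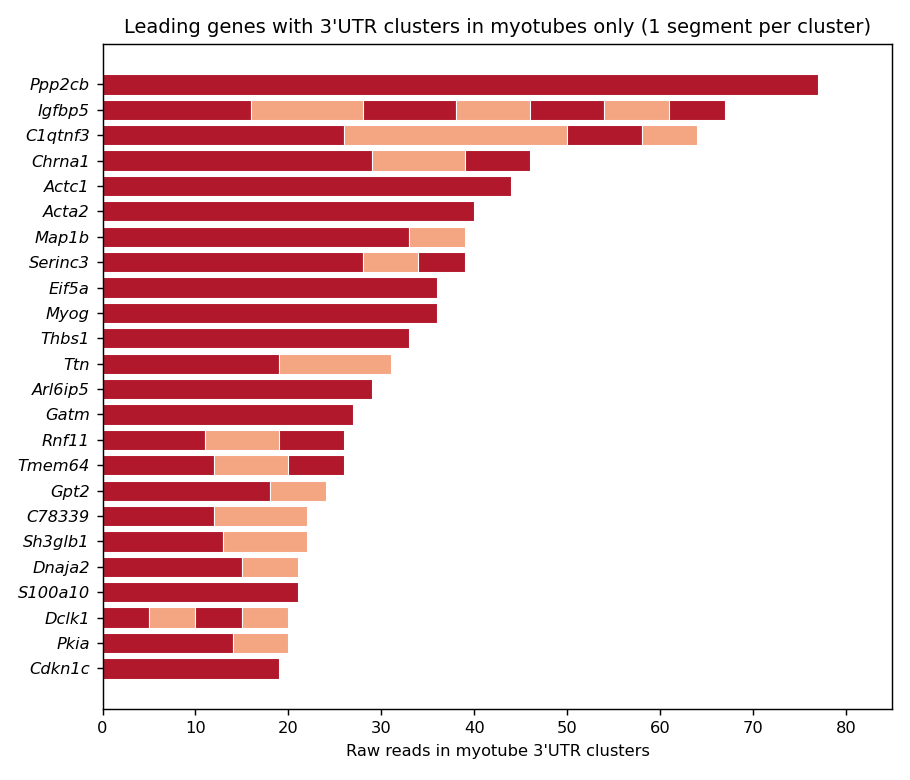
Reads in the 3'UTR clusters of the leading myotube-only genes in the myotube library; the horizontal axis is the raw read count, each bar is 1 gene, and each segment is 1 cluster. Ppp2cb reached 77 reads in 1 cluster, whereas the 67 reads of Igfbp5 lay in 7 clusters.

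Genes of the contractile apparatus were among the strongest. The sarcomere and contraction list had 9 genes with a 3'UTR cluster in either table. Of these, 6 were myotube-only, 2 were bound in both and 1 was ESC-only. Over all 1029 genes with a 3'UTR cluster, 15.4% were myotube-only and 73.3% ESC-only. Over the 275 genes with a myotube 3'UTR cluster, 57.5% were myotube-only. The rule used this same contrast, so such counts, here and for the lists that follow, describe the members and support nothing. The 6 genes had 136 reads, with a median of 20 per gene against 8 over all 158. Acta2, which had 40 of these reads, encodes the alpha actin of smooth muscle. Beside the actins, Ttn, the giant spring of the sarcomere, had 31 reads in 2 clusters, and Myh3, the embryonic myosin heavy chain, had 9 reads. Smpx, a small muscle protein, had 7 reads, and Ldb3, a Z-disc protein, had 5.

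The myogenic and neuromuscular list had 6 myotube-only genes of 10 with a 3'UTR cluster (60%, against 15.4% over all 1029 genes). These had 131 reads and a median of 17 per gene. Chrna1, the alpha subunit of the muscle acetylcholine receptor, had clusters of 7, 10 and 29 reads, 46 in all, of which 84.8% were converted. Myog, the transcription factor that drives myoblast differentiation, had 36 reads in 1 cluster (86.1% converted). Ncam1, an adhesion molecule of muscle and nerve, had 17 reads, as did Rbm24, an RNA-binding protein of muscle. The remaining 2 were Sgcb, a sarcoglycan, with 9 reads and Chrnd, the delta subunit of the same receptor, with 6. Neither receptor subunit had an ESC cluster of any class.

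Secreted and matrix proteins gave 7 myotube-only genes of 12 (58.3%, against 15.4% over all 1029 genes). They had the most reads of any of these lists, 210, with a median of 14 per gene. Igfbp5, which binds insulin-like growth factors, had 7 clusters of 6 to 16 reads within 4301 nt. C1qtnf3, a secreted C1q and TNF related protein, had 4 clusters of 24, 8, 26 and 6 reads within 790 nt. Thbs1, a matrix glycoprotein, had 33 reads in 1 cluster, and 97.0% of them were converted. The other members were Sdc2 and Wisp1 with 14 reads each, Col3a1 with 11 and Lox, an enzyme that crosslinks collagen, with 7.

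Regulators of the cell cycle and of growth factor signalling had fewer reads per gene. Of 13 cell cycle genes with a 3'UTR cluster, 4 were myotube-only (30.8%, against 15.4% over all 1029 genes). They were Cdkn1c (19 reads), Rb1 (12), Ccnd3 (10) and Cdkn1a (10). Cdkn1c and Cdkn1a encode inhibitors of cyclin-dependent kinases, Rb1 the retinoblastoma protein and Ccnd3 cyclin D3, all known for roles at the exit from the cell cycle. In Cdkn1c, 31.6% of the reads were converted, against 81.3% of the reads of all myotube-only clusters. Of 12 growth factor signalling genes, 4 were myotube-only (33.3%). These were the kinase Gsk3b with 18 reads in 2 clusters, the receptors Tgfbr1 with 15 and Bmpr1a with 9, and Wwtr1, a Hippo pathway coactivator, with 7.

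The remaining lists had smaller shares of myotube-only genes. The actin cytoskeleton list had 4 of 22 (18.2%), led by Map1b, a microtubule-associated protein, with 39 reads in 2 clusters, then Actn4, an actin crosslinker, with 12. The RNA-binding and miRNA pathway list had 4 of 26, or 15.4%, the same share as over all 1029 genes. Another 8 of its genes were bound in both, so most of those with a myotube 3'UTR cluster were not myotube-only. Over all 275 genes with a myotube 3'UTR cluster, 57.5% were myotube-only. The myotube-only genes of the list were the RNA-binding proteins Celf2 (19 reads), Rbms1 (9) and G3bp1 (6), and Ago3 (5), itself an AGO protein. Membrane traffic and protein turnover had 2 of 26, the ubiquitin ligase Rnf11 (26 reads in 3 clusters) and the endosomal GTPase Rab5a (6), and 11 genes bound in both. No transcription and chromatin gene of 8, and no pluripotency gene of 10, was myotube-only. Neuronal, blood and liver, and fibroblast and adipocyte markers, 10 genes each, had no 3'UTR cluster in either table. In all, 37 of the 158 genes stood on one of these lists and 121 on none.

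**Figure D2:**
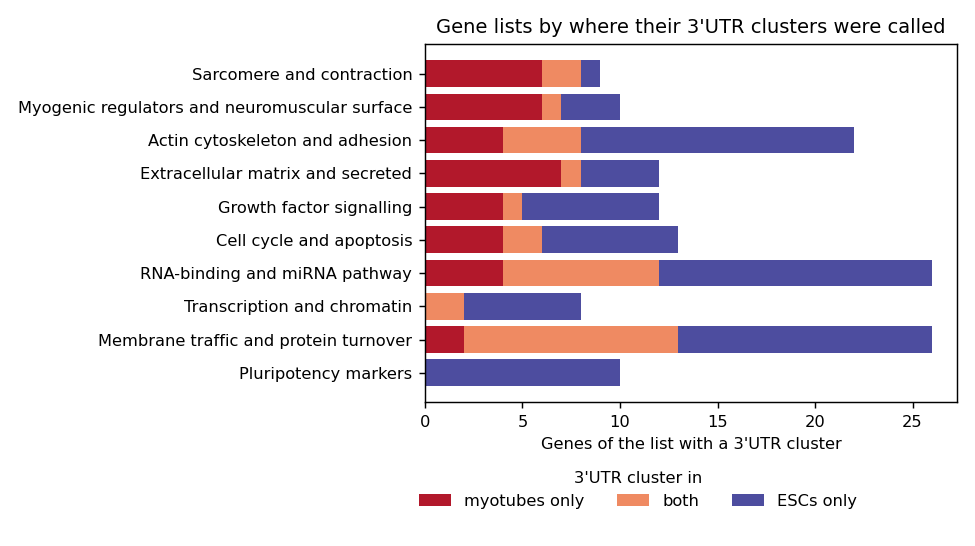
Genes of each list with a 3'UTR cluster, divided into myotube-only, bound in both and ESC-only genes; the horizontal axis is the number of genes. Sarcomere, myogenic and matrix lists were mainly myotube-only (6 of 9, 6 of 10 and 7 of 12), and the 10 pluripotency genes were all ESC-only. Over all 1029 genes with a 3'UTR cluster, 15.4% were myotube-only and 73.3% ESC-only.

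Most genes had 1 cluster, namely 134 of 158 (84.8%, 78.2 to 90.0%), against 85 of 117 genes bound in both (72.6%, by their myotube clusters) and 584 of 754 ESC-only genes (77.5%). There were 17 genes with 2 clusters and 7 with 3 or more. These 7 were Igfbp5, C1qtnf3, Chrna1, Serinc3, Rnf11, Tmem64 and Dclk1. Serinc3, a membrane protein, had clusters of 6, 28 and 5 reads, and Tmem64, also a membrane protein, had 6, 12 and 8. Dclk1, a doublecortin-like kinase, had 4 clusters of 5 reads each within chr3:55467086-55469659.

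Neighbouring clusters of a gene were usually far apart. The 37 neighbouring pairs had a median gap of 714 nt (25 to 3711 nt), and 15 pairs were at most 500 nt apart. The closest pairs, both with 25 nt between them, were in Serinc3 and in Itm2b, an integral membrane protein named here after its values were seen. Their sequences are shown as the closest clusters of the set, and capitals again mark G.
Itm2b, chr14:73362960-73362982, minus strand: ttttttaaaatcttcttttcatG
Itm2b, chr14:73362911-73362934, minus strand: ctcttcatctcaataactcaatta
Serinc3, chr2:163625039-163625060, minus strand: ctatttttaatttctattacaG
Serinc3, chr2:163624988-163625013, minus strand: cattaatccacatttcccttcttcaG

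**Figure D3:**
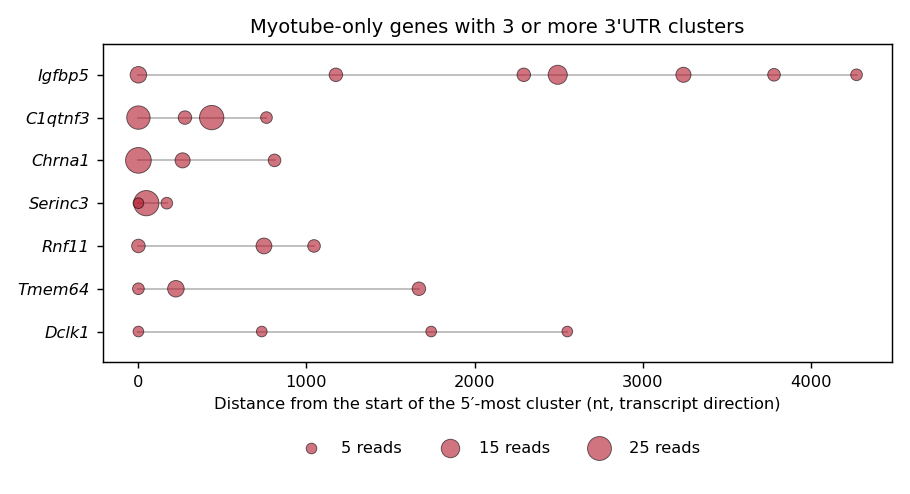
Position of the clusters in the 7 myotube-only genes with 3 or more 3'UTR clusters; the horizontal axis is the distance in nt, in transcript direction, from the gene's 5′-most cluster, and the area of each circle is proportional to the read count. Clusters of Igfbp5 spanned 4301 nt, those of C1qtnf3 790 nt.

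The median distance of the myotube-only clusters to the annotated 3′ end of the gene (RefSeq, 192 clusters placed) was 927 nt, against 982 nt for genes bound in both and 908.5 nt for ESC-only clusters. Clusters within 1000 nt of that end made up 52.1% of the myotube-only clusters, 51.5% of those in genes bound in both and 52.5% of the ESC-only ones. Closer to the end the shares were lower in the myotube-only set. Within 500 nt lay 29.2% (22.8 to 36.1%) of the myotube-only clusters, 33.9% of those in genes bound in both and 34.4% (31.5 to 37.3%) of the ESC-only ones. Within 100 nt lay 6.77% (3.65 to 11.3%) of the myotube-only clusters, 9.09% of those in genes bound in both and 9.81% (8.08 to 11.8%) of the ESC-only ones, and at both distances the intervals overlapped. Genes with several annotated ends blur this measure, and the Dclk1 clusters lay 69409 to 71953 nt before the outermost end.

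No myotube-only cluster overlapped an ESC cluster of any class by 1 nt or more, and 80 of the 168 other myotube 3'UTR clusters did. The rule fixes the first count as far as 3'UTR clusters of the same gene go. It also gave every gene of the other set an ESC 3'UTR cluster, so the contrast is a description. Of the 158 genes, 15 (9.49%) did have ESC clusters in other parts of the transcript, 19 clusters with 126 reads. In 9 genes these were coding, and in 4 they were intronic. Among the leading genes, Ttn had 6 ESC reads, Igfbp5 had 7 in its 5'UTR and Map1b had 5. Likewise 15 genes had myotube clusters elsewhere, 18 clusters with 165 reads, such as coding clusters of Myog with 13 reads and of Serinc3 with 21. The remaining 143 genes had no ESC cluster of any class.

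Conversion was high in the myotube-only clusters. Of their 1960 reads, 1594 (81.3%) carried a T-to-C conversion, close to the 81.5% of the myotube clusters in genes bound in both, and against 69.8% in the ESC-only clusters. Every read was converted in 95 of the 195 myotube-only clusters, in 75 of 168 in genes bound in both and in 282 of 1063 ESC-only clusters. Both sets of myotube clusters thus had the same share to within 1 percentage point, and the ESC set a lower one. Eif5a, a translation factor, stood low among the leading genes, with 33.3% of 36 reads converted.

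The clusters were poor in G. Leaving out the last base, G made up 1.32% of bases in the myotube-only clusters, 1.92% in those of genes bound in both and 3.08% in ESC-only clusters. A cluster with no G before its last base was the usual case, 168 of 195 (86.2%, 80.5 to 90.7%), against 134 of 168 in genes bound in both (79.8%, 72.9 to 85.6%) and 767 of 1063 ESC-only clusters (72.2%, 69.4 to 74.8%). At least 3 inner G stood in 8 of the myotube-only clusters (4.10%), 9 of those in genes bound in both (5.36%) and 107 of the ESC-only ones (10.1%). The last base was G in 83.6% of myotube-only clusters, 83.9% of those in genes bound in both and 81.8% of ESC-only ones. Clusters of all sets therefore mostly ran up to a G, and the ESC-only ones more often ran through one. RNase T1 cuts after G, and the extent of digestion in each library was not measured here, so its part in these shares was not tested.

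**Figure D4:**
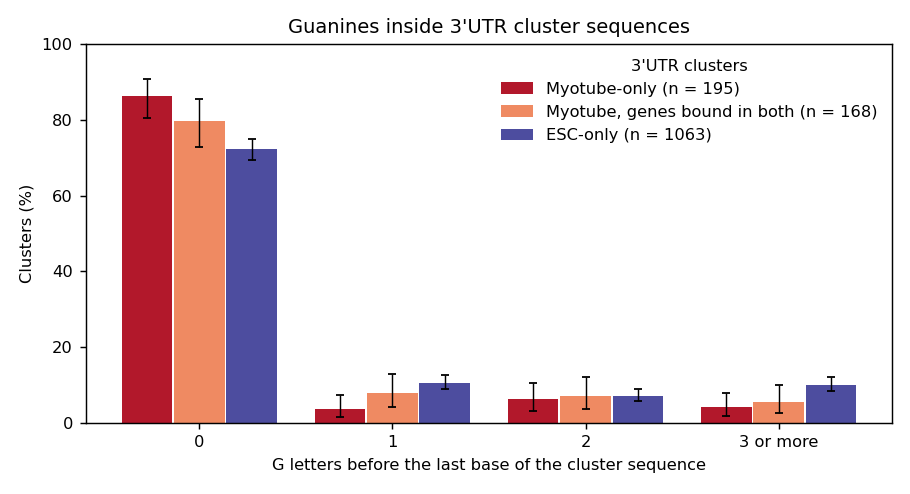
Share of clusters by the number of G before the last base, for myotube-only clusters, myotube clusters of genes bound in both and ESC-only clusters (n = 195, 168 and 1063); the vertical axis is the percent of clusters and the error bars are exact 95% intervals for counting error. Clusters without an inner G made up 86.2% of the myotube-only, 79.8% of the second and 72.2% of the ESC-only set.

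Seed sites were few. Of 40 seed families searched, 13 had a site in a myotube-only cluster, and 20 of the 195 clusters (10.3%, 6.38 to 15.4%) held one, against 20 of 168 (11.9%) in genes bound in both and 97 of 1063 (9.13%) in ESC-only clusters. No cluster held sites of 2 families. Since 37 of the 40 sites contain a G, a cluster with such a site has an inner G by construction unless that G is its last base, and site counts cannot be read apart from G content. Of the 20 myotube-only clusters with a site, 15 had an inner G and 5 had none.

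Sites of the 32 families of muscle, myoblasts or wide expression stood in 17 myotube-only clusters (8.72%, 5.16 to 13.6%), in 17 of those in genes bound in both (10.1%, 6.01 to 15.7%) and in 40 ESC-only clusters (3.76%, 2.70 to 5.09%). Sites of the 5 ESC families stood in 1 myotube-only cluster (0.513%, 0.0130 to 2.82%), in 3 of those in genes bound in both (1.79%) and in 55 ESC-only clusters (5.17%, 3.92 to 6.68%). Sites of the 3 families of other tissues stood in 2 myotube-only clusters (1.03%), 2 of genes bound in both and 11 ESC-only ones (1.03%). The classes were not set by the miRNA reads given below. There, miR-27b of the first class and miR-142a of the last had reads in ESCs only. With these 7 nt sites, the intervals of the myotube-only and ESC-only clusters did not overlap for the ESC families. Nor did they, by a narrow margin, for the muscle, myoblast or widely expressed families. Those intervals did overlap without the miR-133b entry, which was added after the tables were seen and left 15 myotube-only clusters (7.69%, 4.37 to 12.4%) against 40 ESC-only ones (3.76%, 2.70 to 5.09%). They also overlapped with sites of 6 nt, which stood in 15.9% (11.1 to 21.8%) of myotube-only and 10.2% (8.41 to 12.1%) of ESC-only clusters. With the miR-133b entry kept, sites of 6 nt followed by A stood in 6.67% (3.60 to 11.1%) and 2.35% (1.53 to 3.45%), without overlap. For the ESC families, sites of 6 nt stood in 8 myotube-only clusters (4.10%, 1.79 to 7.92%) and in 9.69% of ESC-only ones (7.98 to 11.6%), without overlap by a narrow margin. Sites of 6 nt followed by A stood in 3 myotube-only clusters (1.54%, 0.318 to 4.43%) and in 4.23% of ESC-only ones (3.10 to 5.62%), with overlapping intervals. With 1 library a cell type, these shares compare 2 libraries, and whether intervals overlap is no test of a difference between cell types. The intervals also take clusters as independent, although some genes gave several.

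The site of miR-322, which is shared with miR-16 and reads TGCTGCT, was the most frequent of the 7 nt sites, in 4 myotube-only clusters (2.05%, 0.562 to 5.17%), 1 cluster of genes bound in both and 6 ESC-only clusters. It stood in 1.01% of all myotube clusters and in 0.489% of all ESC clusters. The 4 genes, printed above, were the transcription factors Zfhx4 and Rreb1, the RNA-binding protein Rbms1 and Vegfa, an angiogenic growth factor. With sites of 6 nt it stood in 5 myotube-only clusters, fewer than the 7 of miR-17 and the 6 of let-7a. The clusters with the 7 nt site had 6 to 18 reads.

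Next came the sites of the muscle miRNAs miR-133b and miR-206, and those of miR-27b and miR-24, each in 2 myotube-only clusters. The miR-133b site, GGACCAA, stood in 2 myotube-only clusters, 2 clusters of genes bound in both and no ESC-only cluster. One of them was the strongest myotube-only cluster, in Ppp2cb, in which the site starts at base 18 of 28. The miR-206 site, ACATTCC, which is also that of miR-1, stood in clusters of Ncam1 and Ppib, an endoplasmic reticulum cyclophilin, against 4 in genes bound in both and 4 ESC-only ones. The miR-27b site, ACTGTGA, stood in clusters of Wisp1, a secreted CCN protein, and Dram2, a lysosomal membrane protein, against 4 in genes bound in both and no ESC-only one. The miR-24 site, CTGAGCC, stood in clusters of Laptm4b, a lysosomal membrane protein, and Vgll3, a cofactor of TEAD transcription factors, against none in genes bound in both and 1 ESC-only one. At these counts the intervals of myotube-only and ESC-only clusters overlapped for the miR-322, miR-133b, miR-206, miR-27b and miR-24 sites.

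Single sites stood in further genes, of which Ttn and Cdkn1a are on the lists above. Gatm, the first enzyme of creatine synthesis, had a let-7a site in a cluster of 27 reads. Ttn had a miR-26a site in its stronger cluster, of 19 reads, and Cdkn1a had a miR-22 site in a cluster of 5 reads. The sites of miR-29a, miR-31, miR-19b, miR-9 and miR-142a each stood in 1 further cluster. The 7 nt site of the miR-17 family stood in 0 myotube-only clusters, which allows a share of up to 1.87%, 2 clusters of genes bound in both and 34 ESC-only clusters (3.20%, 2.23 to 4.44%). With sites of 6 nt it stood in 7 myotube-only clusters, 6 of genes bound in both and 64 ESC-only ones, and with sites of 6 nt followed by A in 2 myotube-only clusters, 1 of genes bound in both and 21 ESC-only ones. The 7 nt site of miR-291a, a miRNA abundant in ESCs, stood in no cluster of either myotube set and in 25 ESC-only clusters.

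Clusters called on the mature miRNAs themselves did not follow one direction across these families. Those on the miR-322 family held 1776 reads in myotubes and 24 in ESCs, those on the let-7a family 531 in myotubes and none in ESCs, and those on miR-26a 24 in myotubes and none in ESCs. The miR-27b family had none in myotubes and 891 reads in ESCs, and the miR-142a family none in myotubes and 43654 in ESCs. No cluster was called in either table on a mature miRNA with a reference entry in the miR-133b, miR-206, miR-24, miR-17 or miR-291a families. Only miRNAs with such an entry could be counted, and miR-1a-3p, which shares the miR-206 seed, had none. The counts thus do not show that every miRNA of these families was below the calling limit.

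**Figure D5:**
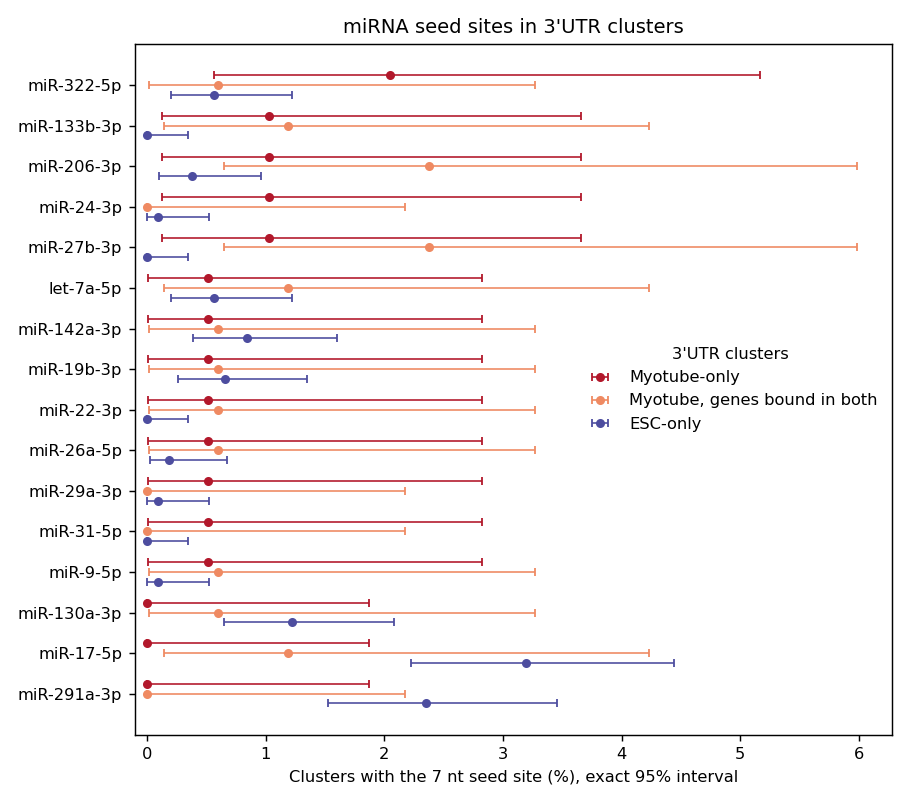
Share of clusters with the 7 nt seed site of each miRNA family, for myotube-only clusters, myotube clusters of genes bound in both and ESC-only clusters; the horizontal axis is the percent of clusters, points are shares and bars are exact 95% intervals for counting error. The miR-322 site stood in 2.05% of myotube-only clusters, and the miR-17 site in 0 of them and in 3.20% of ESC-only clusters.

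Of the 3 short motifs searched on the transcript strand, ATTTA, the core of AU-rich elements, stood in 23 myotube-only clusters (11.8%, 7.63 to 17.2%). It stood in 15 clusters of genes bound in both (8.93%, 5.08 to 14.3%) and 72 ESC-only clusters (6.77%, 5.34 to 8.45%), and these intervals overlapped that of the myotube-only clusters. It also stood in 8.55% of all myotube and 6.36% of all ESC clusters. It holds no G. AATAAA, the polyadenylation signal, stood in 5 myotube-only clusters (2.56%), 6 of genes bound in both (3.57%) and 46 ESC-only ones (4.33%). TGTANAT, the Pumilio motif, stood in 1 myotube-only cluster, 3 of genes bound in both and 10 ESC-only ones. A match is a run of letters and not a measured site.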

How the data were processed

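AGO PAR-CLIP cluster tables of 2 cytoplasmic libraries, myotubes and ESCs, were used, and the nuclear samples were not analysed here. The read, distinct-sequence and conversion columns hold whole-number counts of reads for a cluster, deposited without normalization as far as the file headers say. The conversion share was deposited by the authors as a fraction of reads. The tool named is bcl2fastq 2.17.1, and the genome build is mm10, both per the submitters' processing notes. Which aligner and cluster caller were used, with what settings or pooling, is not given in the sources used here. Each sample title ends in "(2)", whose meaning the labels do not give, and each was taken as 1 library.

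The deposited share of reads ending in G was not used, because it changed with the strand, and the last base of the cluster sequence was read instead. Blank lines (1 in the myotube table and 4 in the ESC table) were dropped, and no other filter was set. Of the 158 gene symbols, 154 (97.5%) matched an Ensembl name. Distances to gene ends came from RefSeq genes. Seed sites were searched within the cluster sequences on the transcript strand, since no sequence beyond their ends was used. Families were formed by shared bases 2 to 8. The miR-133b and miR-135a entries were added after the tables were seen, to stand for their families, and miR-1a-3p, miR-486a-5p, miR-145a-5p, miR-143-3p, miR-378a-3p, miR-140-5p, miR-302a-3p, miR-122-5p and miR-124-3p had no entry of their own in the table. The search was checked on made sequences for 38 families. Calculations used Python 3.11.15 with pandas 2.3.3 and scipy 1.17.1.

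With 1 library per group, only counts, shares and medians are given. Shares carry exact Clopper-Pearson 95% intervals, which cover counting error only. Reads amplified by PCR and lacking molecular identifiers do not count molecules, so the interval of the read share can be too narrow. Genes named were the 12 with the most reads, those with 3 or more clusters, the 3 leading members of each list, and the 3 leading clusters of each family with 3 or more sites. Other genes named were chosen after their values were seen. The members and lists were chosen with earlier results of these data known. Alternatives were a minimum of 10 reads, exclusion by any ESC cluster, other read totals, and sites of 6 nt or with a terminal A.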

Additional observations from a re-analysis of the deposited data

How the results depend on the processing

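With only clusters of at least 10 reads in both tables, the rule gave 67 genes in place of 158, 75 clusters in place of 195, a share of 0.933% of the myotube reads in place of 1.45%, and a median of 13 reads per cluster in place of 8. Of those 67 genes, 55 were among the 158 and 12 were gained, because a small ESC cluster no longer excluded them. When any ESC cluster excluded a gene, 143 genes and 171 clusters were left, with 1.27% of the reads. No cluster was lost when those overlapping an ESC cluster were left out. The share was 4.87% when distinct sequences were counted in place of reads, and 40.7% of reads on mRNA outside the mitochondria. Sites of muscle, myoblast or widely expressed families stood in 31 clusters with sites of 6 nt, 13 with sites ending in A, 8 with only clusters of at least 10 reads and 15 without genes that had an ESC cluster, in place of 17. They stood in 15 without the miR-133b entry, an alternative chosen after seeing the data. Of the 13 families with a site, 4 counts moved by over 1.5 times with sites of 6 nt, 7 with sites ending in A and 8 at 10 reads. Of the 8 lists with a myotube-only gene, 3 moved so at 10 reads and none when any ESC cluster excluded a gene. No paired analysis was possible because each cell type had 1 library. The small clusters, with a median of 8 reads, limit what single genes can show.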

Other observations

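Of the 158 myotube-only genes, 121 stood on none of the lists of the report. They were sorted by known function after their values were seen, so the groups below describe them and carry no share. A group of 18 genes was sorted loosely under muscle fibre membrane, excitation and muscle growth, with 20 clusters and 137 reads. Not all of its genes are particular to muscle, as with Lmna, Prkaa2, Dapk2 and Trp53inp2. Srl, sarcalumenin of the sarcoplasmic reticulum, led the group with 15 reads in 2 clusters, followed by Tmem38b, a cation channel of intracellular membranes, with 14. It also held Cacng1, a subunit of the muscle calcium channel, Jph1, which joins the surface and reticulum membranes, Fst, follistatin, an inhibitor of myostatin, and Fndc5, the precursor of irisin. None of its genes had more than 15 reads.

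Other groups held fewer genes. Phosphatase, kinase and G-protein signalling had 12 genes with 190 reads, led by Ppp2cb with 77. Transporters, lysosomal and multi-span membrane proteins had 16 genes with 209 reads, led by Serinc3 with 39 and Arl6ip5 with 29. Translation, folding and mitochondrial metabolism had 16 genes with 206 reads, led by Eif5a with 36 and Gatm with 27. Transcription factors and cofactors had 9 genes with 83 reads, led by Zfhx4 with 18. Itm2b (14 reads in 2 clusters), App (13), Adam10 (8) and Prnp (7), genes known from amyloid and prion disease, had 42 reads. The 46 genes in none of these groups had 5 to 22 reads with a median of 7.

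The most frequent 7 nt words in the myotube-only clusters held no G and matched no seed site searched. TTCCTTT stood in 13 clusters (6.67%), against 9 in genes bound in both (5.36%) and 23 ESC-only clusters (2.16%). TTTTTAA stood in 12 myotube-only clusters, 11 of genes bound in both and 18 ESC-only ones, and CTTTTTA in 11 myotube-only clusters, 11 of genes bound in both and 22 ESC-only ones. The words were chosen for their frequency in the first set, so the first count of each is a description.

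The deposited share of reads ending in G changed with the strand. For the 105 myotube-only clusters on the plus strand its median was 100%, and 6 clusters were at 0. For the 90 on the minus strand its median was 0%, and 89 clusters were at 0. The printed sequences went the other way, with a last base of G in 75.2% on the plus strand and 93.3% on the minus strand. Sequence letters matched the mature miRNA on the given strand in 42 of 43 clusters on mature miRNAs.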
